A study of Arabidopsis thaliana with 6 samples.

Results

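Transcripts of 42 histone loci of Arabidopsis thaliana, of 32833 plant loci counted, were examined by histone class in whole seedlings. The members were chosen by class from a list of locus identifiers, and the list was drawn up with the ethylene and air values of these libraries already known. All 42 were found in the count files. They comprised 8 H4, 5 H3.1, 4 H2A and 10 H2B loci, here called replication-dependent (27 loci), 3 H3.3, 2 H2A.X, 3 H2A.W and 4 H2A.Z loci, here called variants (12 loci), and 3 linker H1 loci. Ethylene seedlings spent their first 3 d in the dark with ethylene gas at 0.7 ppm and then 5 d in light without it, and air seedlings had the same 3 d and 5 d with no ethylene. Each group had 3 libraries, and both were of the Columbia genotype. Nothing in the labels says that replicates were separate cultures, so the spread between libraries may be technical. Since this contrast helped choose the members, their values are given as a description with no p-value, and all class comparisons below are descriptions too.

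Histones are the proteins around which nuclear DNA is wound: pairs of H2A, H2B, H3 and H4 form the nucleosome core, and linker H1 binds the DNA between cores. Replication-dependent histones, such as H3.1 and H4, are made mainly in S phase to package newly copied DNA, whereas variants such as H3.3 and H2A.Z can be exchanged into chromatin outside replication. H2A.X is the form phosphorylated at DNA breaks, H2A.W marks heterochromatin, and H2A.Z sits at gene starts and in responsive genes. Plant histone mRNAs carry poly(A) tails, unlike the replication-dependent histone mRNAs of animals, so mRNA-enriched libraries such as these contain them. The several genes of H4, and those of H3.1, encode the same protein, so differences among them lie in transcript level and not in product.

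Replication-dependent histone transcripts were mostly higher after ethylene, H3.1 most evenly, while H3.3 and H2A.Z as classes were close to their air levels or below them. The level of these variant classes depends on how libraries are scaled. Scaled to spike-in RNAs, H3.3 and H2A.Z had summed log2 fold changes of 0.45 and 0.35. Their shares of all histone counts, which need no scaling, were lower in ethylene libraries. Of the 42 loci, 40 had enough counts to be tested, 27 were called higher in ethylene seedlings, 3 were called lower and 10 were not called. A call is an adjusted p under 0.05 from edgeR's quasi-likelihood F-test with adjustment over all 17887 loci tested. Over all those loci 15.8% were called higher and 16.8% lower, and nothing is read from the members' counts beside these shares because the contrast helped choose the members. The median log2 fold change was 0.52 over the 40 tested members and 0.02 over all tested loci. In 30 of the tested members all 3 ethylene libraries lay above all 3 air libraries, and in 4 all lay below, against 23.9% and 23.8% of all tested loci. Among the 26 tested replication-dependent loci 19 were called higher and 1 lower (median log2 fold change 0.68), and among the 11 tested variants 6 were called higher and 1 lower (median 0.33).

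**Figure D1:**
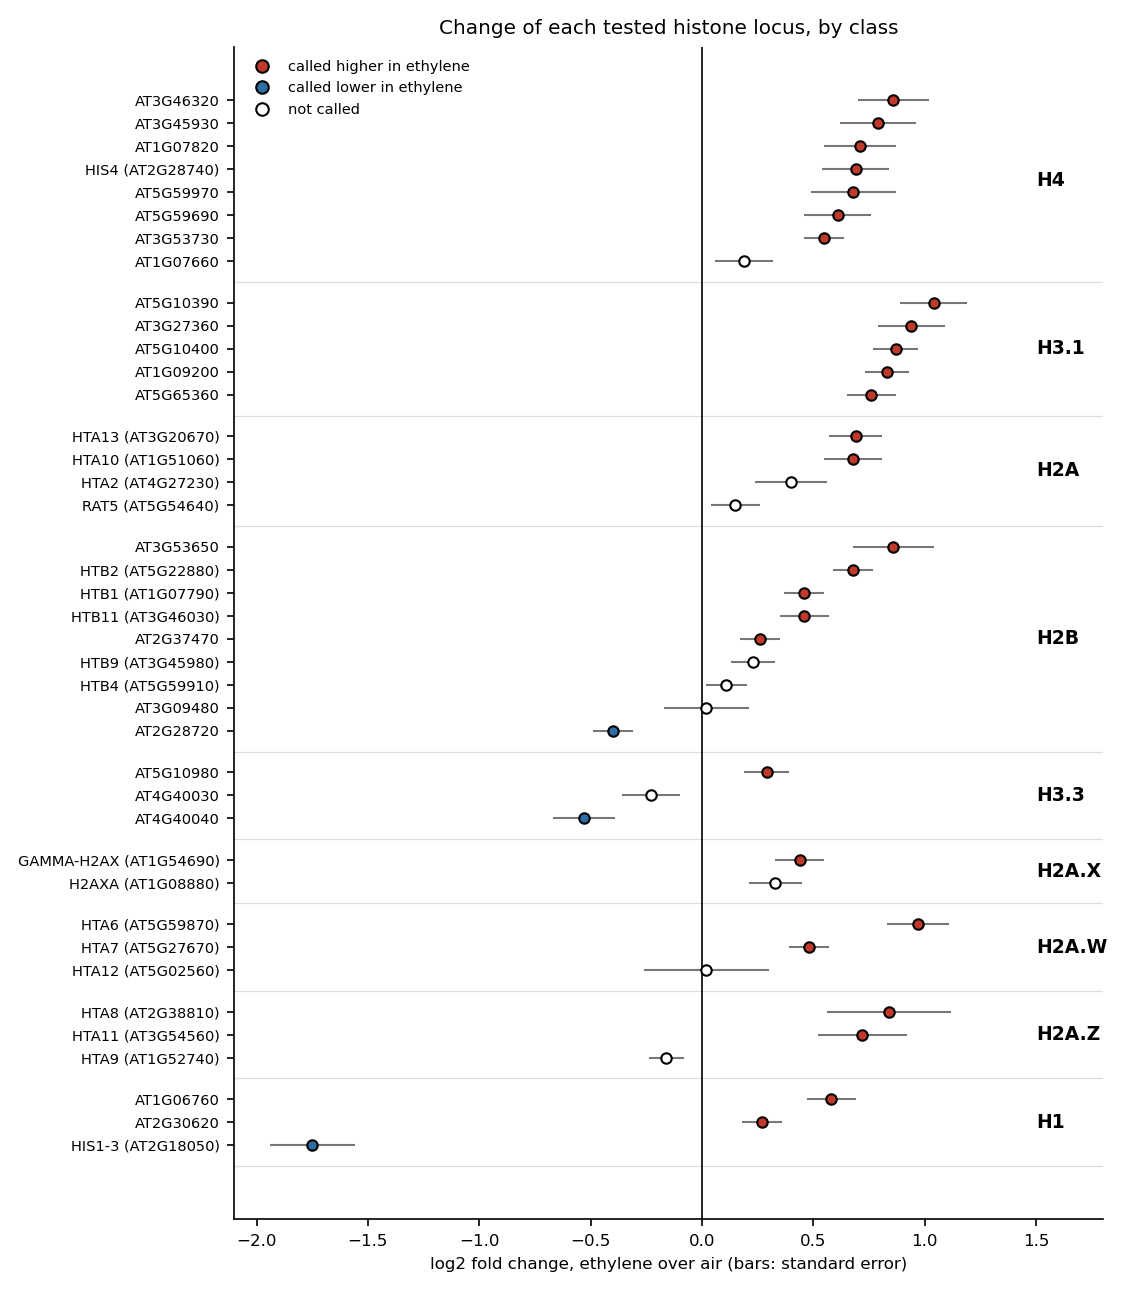
Log2 fold change of each of the 40 tested histone loci, ethylene over air (x axis), with loci grouped by class down the page; points are fitted values from edgeR, bars are standard errors, red is called higher, blue called lower and white not called. All 5 H3.1 loci lie between 0.76 and 1.04, H3.3 loci lie on both sides of 0, and HIS1-3 lies at -1.75.

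Promoter sequences were read from the RefSeq annotation of assembly TAIR10.1 as the 250 bases before each annotated gene start. The octamer CGCGGATC, a short element known from plant histone promoters, was searched on both strands. It was present in 10 of the 42 members (23.8%) and in 0.135% of 27443 nuclear protein-coding promoters of the same length. The 10 were spread over 6 classes: 2 H4, 3 H3.1, 1 H3.3, 2 H2A, 1 H2A.W and 1 H1 locus. The last 150 bases before the gene start are shown for 8 of them, because the element is shared by loci called higher in ethylene and by AT4G40040, which was called lower. Capitals mark the octamer in either orientation, and each sequence runs 5′ to 3′ on its gene's strand.
H4 locus AT5G59690, chr5:24051324-24051473, plus strand: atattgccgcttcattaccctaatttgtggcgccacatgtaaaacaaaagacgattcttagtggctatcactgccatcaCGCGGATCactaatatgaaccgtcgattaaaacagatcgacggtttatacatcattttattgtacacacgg
H3.1 locus AT1G09200, chr1:2972335-2972484, minus strand: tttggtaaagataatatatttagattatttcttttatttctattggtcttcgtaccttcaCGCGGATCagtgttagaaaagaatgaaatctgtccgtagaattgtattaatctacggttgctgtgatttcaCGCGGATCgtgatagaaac
H3.1 locus AT5G10400, chr5:3270958-3271107, minus strand: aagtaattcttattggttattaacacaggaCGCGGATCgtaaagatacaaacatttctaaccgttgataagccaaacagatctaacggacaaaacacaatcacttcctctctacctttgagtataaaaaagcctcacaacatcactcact
H3.1 locus AT5G65360, chr5:26120582-26120731, minus strand: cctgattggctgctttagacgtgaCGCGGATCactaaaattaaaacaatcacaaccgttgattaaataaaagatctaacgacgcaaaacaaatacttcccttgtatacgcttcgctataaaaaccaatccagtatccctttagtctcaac
H2A locus HTA10, chr1:18926661-18926810, plus strand: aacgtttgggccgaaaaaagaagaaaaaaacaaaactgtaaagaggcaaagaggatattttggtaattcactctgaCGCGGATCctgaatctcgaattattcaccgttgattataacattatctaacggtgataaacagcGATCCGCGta
H2A.W locus HTA6, chr5:24116221-24116370, minus strand: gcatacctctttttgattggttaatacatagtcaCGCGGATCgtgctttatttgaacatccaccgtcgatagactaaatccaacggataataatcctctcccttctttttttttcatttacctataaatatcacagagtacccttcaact
H1 locus AT1G06760, chr1:2077768-2077917, minus strand: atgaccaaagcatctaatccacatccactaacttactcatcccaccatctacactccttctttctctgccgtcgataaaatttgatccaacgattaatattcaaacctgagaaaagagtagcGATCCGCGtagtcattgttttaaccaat
H3.3 locus AT4G40040, chr4:18558946-18559095, minus strand: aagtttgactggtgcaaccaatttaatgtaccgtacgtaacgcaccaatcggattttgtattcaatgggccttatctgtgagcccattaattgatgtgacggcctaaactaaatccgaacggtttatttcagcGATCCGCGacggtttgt

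AT1G09200 and HTA10 each hold 2 copies, and the other 6 hold 1. In AT1G09200 the copies begin 90 and 19 bases before the gene start, and in HTA10 they begin 74 and 10 bases before it. In AT4G40040 the single copy begins 17 bases before the start and is in the reverse orientation, GATCCGCG. Not shown are AT1G07660 (H4) and HTA13 (H2A), which hold 1 copy each. The 10 loci with an octamer had a median log2 fold change of 0.68 and ranged from -0.53 to 0.97, and the other 30 tested members had a median of 0.45. Of the 10, 8 were called higher, 1 lower and 1 was not called, so loci with the element were found on both sides of 0. Of the other 30 tested members 19 were called higher and 2 lower, beside 15.8% and 16.8% of all tested loci.

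No octamer was found in the 10 H2B promoters. The hexamer ACGTCA, another element known from plant histone promoters, was found in 8 of the 10 H2B loci (80%), in 2 H3.1 loci and in the H3.3 locus AT5G10980, which is 11 of 42 members (26.2%) against 7.69% of all protein-coding promoters. Windows of 150 bases are shown for the H2B locus with the highest fold change, for the abundant HTB11 and for the H2B locus called lower, with the hexamer in capitals.
H2B locus AT3G53650, chr3:19889147-19889296, plus strand: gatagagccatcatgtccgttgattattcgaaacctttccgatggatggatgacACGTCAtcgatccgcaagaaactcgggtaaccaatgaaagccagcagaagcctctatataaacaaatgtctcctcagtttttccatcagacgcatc
H2B locus HTB11, chr3:16914132-16914281, minus strand: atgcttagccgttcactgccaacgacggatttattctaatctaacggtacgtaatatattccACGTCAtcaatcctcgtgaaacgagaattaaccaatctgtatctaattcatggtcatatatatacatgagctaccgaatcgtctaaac
H2B locus AT2G28720, chr2:12326658-12326807, plus strand: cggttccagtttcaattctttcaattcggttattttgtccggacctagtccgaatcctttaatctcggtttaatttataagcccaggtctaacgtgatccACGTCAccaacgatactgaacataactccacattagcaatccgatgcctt

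The hexamer begins 96, 88 and 50 bases before the gene start in AT3G53650, HTB11 and AT2G28720, whose log2 fold changes were 0.86, 0.46 and -0.40. The hexamer was thus present both in the highest and in the lowest of the tested H2B loci. HTB4, the H2B locus with the most counts, held neither element in this window. The nonamer CATCCAACG, the E2F site forms TTTCCCGC and TTTGGCGG and the telo box AAACCCTA were found in 0 of the 42 members. Their shares of all promoters were 0.149%, 0.619%, 0.576% and 4.49%, in that order. The 0 covers these exact letters only, and other forms of the E2F site were not searched. TTTGGCGC, which differs from TTTGGCGG in its last base, is present in the promoters of the H4 loci AT3G45930 and AT3G46320. Absence of E2F sites from the members is therefore not shown. CCAAT was present in 69% of members and 46% of all promoters, and TATAAA in 45.2% of members and 47.3% of all promoters. These are matches of letters in 1 window and say nothing about binding.

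All 8 H4 loci, which encode the core histone H4, had every ethylene library above every air library, and 7 were called higher. AT5G59690, with the most H4 counts, had 180.2, 134.4 and 155.2 CPM (counts scaled to a common library size, edgeR's usual unit) in ethylene libraries, against 109.1, 117.7 and 80.9 CPM in air libraries, a log2 fold change of 0.61 ± 0.15 (SE). AT3G46320 had 38.5, 32.7 and 32.3 CPM in ethylene libraries, against 19.3, 23.1 and 14.8 CPM in air libraries, a log2 fold change of 0.86 ± 0.16 and the highest of the class. The lowest was AT1G07660, with 17.8, 18.9 and 19.5 CPM in ethylene libraries and 17.2, 17.4 and 14.6 CPM in air libraries (log2 fold change 0.19 ± 0.13), where the gap between the groups was small and the locus was not called. The other 5 H4 loci, HIS4 (AT2G28740), AT1G07820, AT3G45930, AT3G53730 and AT5G59970, had log2 fold changes from 0.55 to 0.79 and were called higher. The call of AT5G59970, the least counted H4 locus, was lost without ethylene replicate 2 or 3 or air replicate 3, with fold changes of 0.51 to 0.79 when 1 library at a time was left out.

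AT1G07660 and AT1G07820 (log2 fold change 0.71 ± 0.16) have coding sequences that are 98.1% identical, and their RefSeq mRNAs share an identical run of 137 bases. Reads from such runs fit both loci, and how the authors assigned them is unstated in the sources used here, so the split between this pair is uncertain. Pairs of loci whose mRNAs shared identical runs of at least 75 bases were 3 in H4 and 1 in H2A (HTA10 with HTA13). The other H4 pairs shared less, and the lowest identity between H4 coding sequences was 78.8%. Summed over the 8 loci, which does not depend on how reads were split among them but would miss reads that were dropped, H4 had 507.6, 425.1 and 450.3 CPM in ethylene libraries, against 307.1, 341.9 and 247.5 CPM in air libraries (log2 0.63).

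H3.1 is the H3 form deposited during DNA replication, and all 5 of its loci were called higher. AT5G65360, with the most H3.1 counts and the lowest fold change of the class, had 189.5, 213.0 and 231.7 CPM in ethylene libraries, against 134.2, 133.2 and 106.4 CPM in air libraries (log2 fold change 0.76 ± 0.11). AT5G10390 had 30.1, 28.5 and 29.7 CPM in ethylene libraries, against 16.1, 15.6 and 11.3 CPM in air libraries (1.04 ± 0.15). Between them lay AT1G09200 at 0.83 ± 0.10, AT5G10400 at 0.87 ± 0.10 and AT3G27360 at 0.94 ± 0.15. The 5 loci thus had similar fold changes while their levels differed widely, from 31.1 CPM per kilobase of RefSeq mRNA for AT5G10390 to 232.4 for AT5G65360 (mean over the 6 libraries). AT5G10390 and AT5G10400 are neighbours on the same strand of chromosome 5, with 577 bases between them. AT3G27360 shares 328 bases of its annotated span with AT3G27380 on the same strand, so reads there could belong to either. The 5 coding sequences were 80.3 to 89.5% identical, and the mRNAs shared no identical run over 59 bases.

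H3.3, the H3 form deposited outside replication, did not follow H3.1. AT5G10980 had 185.9, 161.1 and 178.7 CPM in ethylene libraries, against 139.1, 159.9 and 131.6 CPM in air libraries (log2 fold change 0.29 ± 0.10), and was called higher. AT4G40040 had 15.5, 15.1 and 18 CPM in ethylene libraries, against 21.4, 27.6 and 21.3 CPM in air libraries (-0.53 ± 0.14), and was called lower. AT4G40030 had 112.2, 163.1 and 148.8 CPM in ethylene libraries, against 167.8, 154.2 and 176.7 CPM in air libraries (-0.23 ± 0.13), so its groups overlapped and it was not called. AT4G40030 and AT4G40040 lie in a row on chromosome 4 with 42 bases between them, and both gave negative values. The call of AT5G10980 was lost without ethylene replicate 1 or 3 or air replicate 1 or 3 (fold changes of 0.22 to 0.35 when 1 library was left out), and that of AT4G40040 without ethylene replicate 1 or 2 or air replicate 2 (-0.62 to -0.42). The files list 4 and 3 transcripts for the neighbouring pair, and loci with several transcripts may be undercounted if only reads that separate them were kept. In the authors' deposited table, which tests single transcripts, the 2 listed transcripts of AT4G40040 had log2 fold changes of -0.57 and -0.07.

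Summed over their loci, H3.1 had 514.9 ± 26.6 CPM in ethylene libraries and 290.1 ± 36.9 CPM in air libraries (SD, n = 3 each, log2 0.83), whereas H3.3 had 332.8 ± 17 CPM in ethylene libraries and 333.2 ± 7.42 CPM in air libraries (log2 -0.00). The ratio of H3.1 to H3.3 counts, which needs no scaling between libraries, was 1.57, 1.5 and 1.57 in ethylene libraries, against 0.916, 0.938 and 0.756 in air libraries. H3.1 counts therefore exceeded H3.3 counts in every ethylene library and fell short of them in every air library. The ratio was 1.78-fold higher in ethylene libraries. Against the H3.3 locus AT5G10980 alone it was 1.46-fold higher (2.95 ± 0.267 in ethylene libraries, 2.02 ± 0.136 in air libraries), and against AT4G40030 alone 2.11-fold higher. H3.1 and H3.3 mRNAs shared no identical run over 26 bases.

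**Figure D2:**
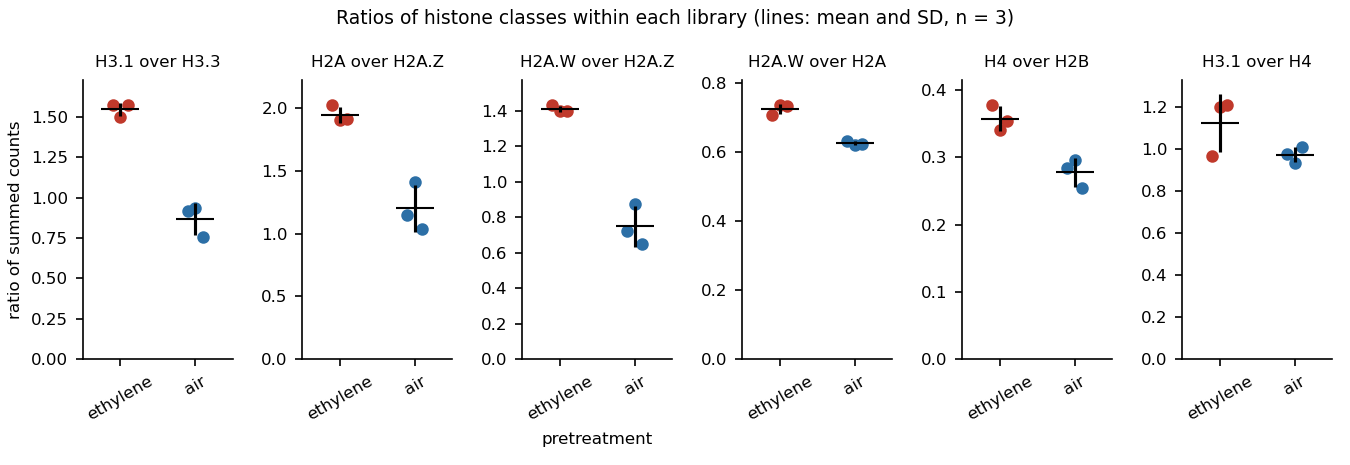
Ratios of summed counts between histone classes within each library (y axis, from 0), ethylene libraries left and air libraries right in each panel; points are libraries and black lines are the mean and SD (n = 3). The H3.1 to H3.3 ratio lies between 1.5 and 1.57 in ethylene libraries and between 0.756 and 0.938 in air libraries, and of the 6 ratios plotted only that of H3.1 to H4 overlaps between groups.

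Of the 4 loci of replication-dependent H2A, the most counted, HTA10 (AT1G51060), had 217.9, 179.3 and 189.8 CPM in ethylene libraries, against 121.9, 145.5 and 98.3 CPM in air libraries (log2 fold change 0.68 ± 0.13). HTA13 (AT3G20670) had 70.5, 61.6 and 69.2 CPM in ethylene libraries, against 39.9, 49.2 and 36.1 CPM in air libraries (0.69 ± 0.12). Both were called higher, and their groups do not overlap. RAT5 (AT5G54640), known from its mutant that resists Agrobacterium transformation, had 48.5, 41 and 40.1 CPM in ethylene libraries, against 35.7, 42.4 and 38.9 CPM in air libraries (0.15 ± 0.11), with overlapping groups. HTA2 (AT4G27230) was not called either (0.40 ± 0.16).

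H2A.W showed the largest summed change of the variant classes. HTA6 (AT5G59870) had 176.6, 152.3 and 163.4 CPM in ethylene libraries, against 81.7, 102.7 and 67.2 CPM in air libraries (log2 fold change 0.97 ± 0.14). Its lowest ethylene library was well above its highest air library. HTA7 (AT5G27670) had a log2 fold change of 0.48 ± 0.09. HTA12 (AT5G02560) had 3.48, 3.05 and 2.38 CPM in ethylene libraries and 2.48, 2.46 and 3.81 CPM in air libraries (0.02 ± 0.28), and made up 1.55% of H2A.W counts. The annotated spans of HTA12 and the H2B locus AT5G02570 share 522 bases on opposite strands, and no source used here says whether the counting used strand.

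The H2A.X loci had similar values. H2AXA (AT1G08880) had 89.6, 99.2 and 93.1 CPM in ethylene libraries, against 82.6, 81.2 and 60.7 CPM in air libraries (log2 fold change 0.33 ± 0.12), and was not called. GAMMA-H2AX (AT1G54690) had 70.9, 55.9 and 65.3 CPM in ethylene libraries, against 46.8, 51.8 and 42.7 CPM in air libraries (0.44 ± 0.11), and was called higher. In both loci the ethylene libraries lay above the air libraries. The call of GAMMA-H2AX was lost without ethylene replicate 1 or air replicate 1 (0.36 to 0.53 when 1 library was left out).

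The 3 tested H2A.Z loci split by abundance. HTA9 (AT1G52740), with 93.7% of H2A.Z counts, had 165.3, 141.6 and 152.0 CPM in ethylene libraries, against 171.8, 170.9 and 171.5 CPM in air libraries (log2 fold change -0.16 ± 0.08). In TMM-scaled CPM its ethylene libraries all lay below its air libraries, yet it was not called. That order depends on the scaling, and the sign of its fold change turned with spike-in scaling. HTA8 (AT2G38810) had 3.23, 4.1 and 3.94 CPM in ethylene libraries, against 2.83, 1.8 and 1.6 CPM in air libraries (0.84 ± 0.28), and HTA11 (AT3G54560) had a log2 fold change of 0.72 ± 0.20. Both were called higher but rest on 191 and 446 counts over the ethylene libraries and 84 and 214 over the air libraries, and the files list 4 and 2 transcripts for them. The call of HTA8 was lost without any 1 of 5 libraries, all but air replicate 1 (0.67 to 1.12), and that of HTA11 without ethylene replicate 2 or 3 or air replicate 2 or 3 (0.60 to 0.89). HTA4 (AT4G13570), the least counted, had 21 counts over the ethylene libraries and 26 over the air libraries, too few to be tested. Its values of 0.388 to 0.452 CPM in ethylene libraries and 0.552 to 0.839 CPM in air libraries lay in the direction of HTA9.

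Within libraries the H2A forms therefore shifted against H2A.Z. The ratio of H2A.W to H2A.Z counts was 1.43, 1.4 and 1.4 in ethylene libraries, against 0.723, 0.875 and 0.651 in air libraries, a 1.88-fold difference. That of H2A to H2A.Z was 1.94 ± 0.0667 in ethylene libraries and 1.2 ± 0.189 in air libraries (1.62-fold). H2A.W also gained on replication-dependent H2A itself, with a ratio of 0.708, 0.735 and 0.733 in ethylene libraries, against 0.631, 0.62 and 0.624 in air libraries. H2A.W is counted as a variant here, but its summed log2 fold change of 0.80 was close to the 0.83 of H3.1 and above the 0.58 of H2A. The division into replication-dependent and variant loci thus did not separate the values cleanly.

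H2B was the largest class by counts and had the widest spread of fold changes among the core classes. HTB4 (AT5G59910), with 31.3% of H2B counts, had 399.5, 371.4 and 384.6 CPM in ethylene libraries and 365.5, 387.0 and 320.4 CPM in air libraries (log2 fold change 0.11 ± 0.09). Its groups overlapped. AT3G53650 had 17.5, 13.5 and 14.9 CPM in ethylene libraries, against 9.73, 8.85 and 6.71 CPM in air libraries (0.86 ± 0.18). AT2G28720 had 85.7, 97.7 and 85.9 CPM in ethylene libraries, against 113.3, 129.2 and 113.1 CPM in air libraries (-0.40 ± 0.09), and was the 1 replication-dependent locus called lower.

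The second most counted H2B locus, HTB2 (AT5G22880), had a log2 fold change of 0.68 ± 0.09, and its ethylene libraries spanned only 242.7 to 250.7 CPM, against 134.0 to 165.9 CPM in air libraries. HTB1 (AT1G07790) and HTB11 (AT3G46030) both had 0.46, and AT2G37470 had 0.26 ± 0.09, all called higher. The call of AT2G37470 was lost without any 1 of 5 libraries, all but ethylene replicate 2 (0.22 to 0.31). HTB9 (AT3G45980, 0.23 ± 0.10) and AT3G09480 (0.02 ± 0.19) were not called. AT5G02570 had 0 counts in all 6 libraries, which allows up to 0.0626 CPM, unscaled, over the ethylene libraries and 0.0711 CPM over the air libraries, for counting error only (3 counts per group). Its whole annotated span of 522 bases lies within that of HTA12, on the opposite strand. The bound has no meaning if reads there were dropped or given to HTA12, and how they were counted is unstated. AT2G28720 lies 1536 bases from the H4 locus HIS4 on chromosome 2, with the genes pointing towards each other. HIS4 was called higher (0.69 ± 0.15), so these neighbours had opposite calls.

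The linker histones went in both directions. AT1G06760 had 328.6, 275.0 and 262.9 CPM in ethylene libraries, against 203.7, 208.8 and 165.2 CPM in air libraries (log2 fold change 0.58 ± 0.11), and AT2G30620 had 0.27 ± 0.09. Both were called higher, and the call of AT2G30620 was lost without ethylene replicate 1 or 2 or air replicate 1 or 3 (0.21 to 0.31). HIS1-3 (AT2G18050), a linker histone known to be induced by drought and abscisic acid, had 5.55, 9.02 and 7.93 CPM in ethylene libraries, against 24.2, 22 and 30 CPM in air libraries (-1.75 ± 0.19). That was the largest change of any member in either direction, and its groups were far apart. The ratio of HIS1-3 counts to those of the other linker loci was 0.0181 ± 0.00555 in ethylene libraries and 0.0854 ± 0.0234 in air libraries.

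**Figure D3:**
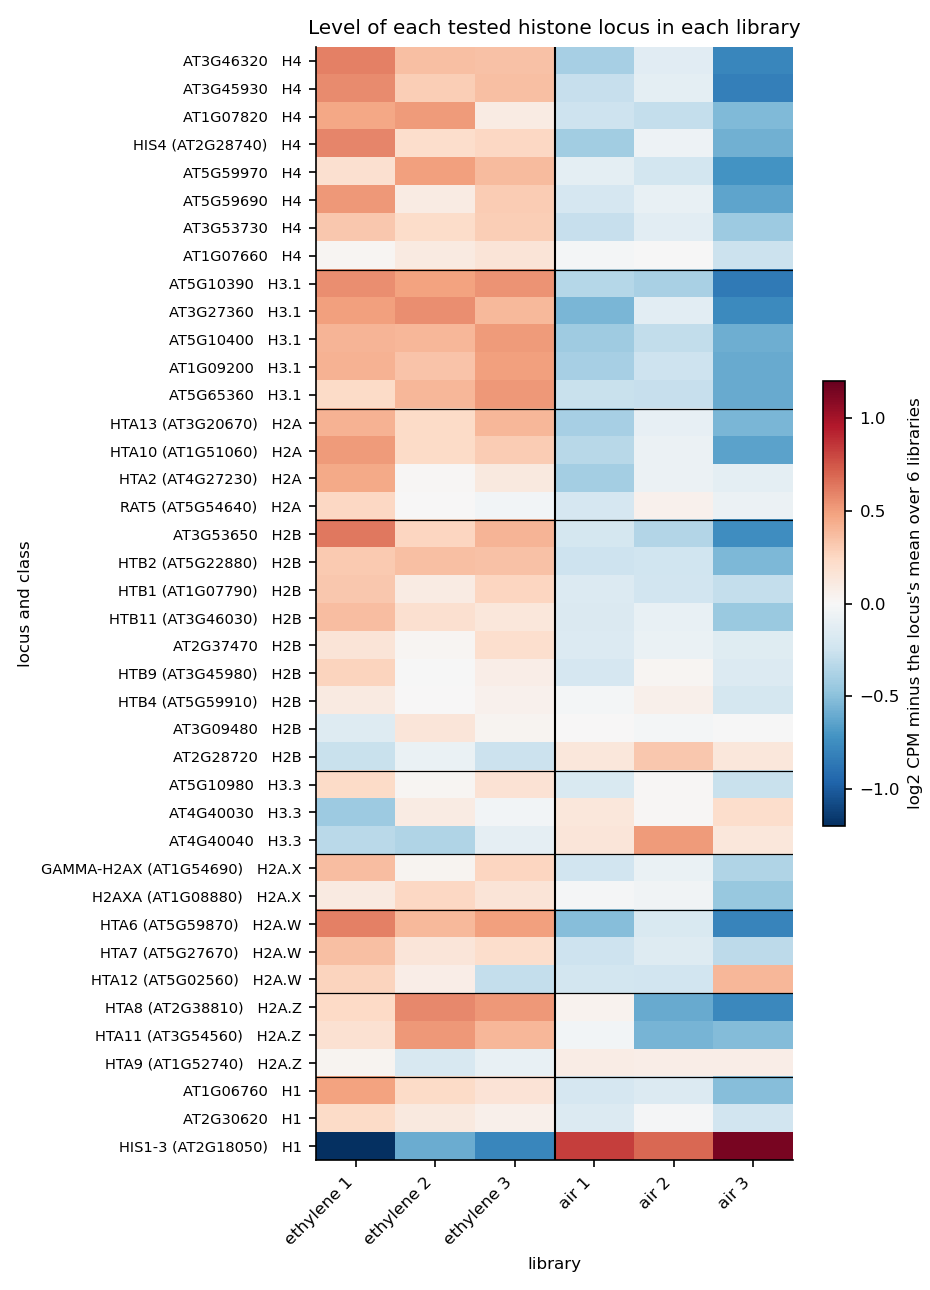
Level of each of the 40 tested histone loci (rows, by class) in each library (columns, ethylene left of the line), as log2 CPM minus the mean of that locus over the 6 libraries. Most replication-dependent rows are red in the 3 ethylene libraries and blue in the air libraries, deepest in air replicate 3, and HIS1-3, AT4G40040 and AT2G28720 run the other way.

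Histone transcripts as a whole made up 0.413 ± 0.0128% of plant counts in ethylene libraries and 0.281 ± 0.0278% in air libraries (SD, n = 3 each). Their summed level was 4080, 3765 and 3880 CPM in ethylene libraries, against 3006, 3225 and 2685 CPM in air libraries (log2 0.40). The share of plant counts is taken without the TMM factors and the CPM with them, so the sizes of these differences are not the same. Replication-dependent loci contributed 2588 ± 109.9 CPM in ethylene libraries and 1875 ± 204.9 CPM in air libraries (log2 0.47), and variants 890.5 ± 19.5 CPM in ethylene libraries and 769.1 ± 40.2 CPM in air libraries (log2 0.21). Seedlings are a mixture of cells, so more cells that express a histone gene and more of its RNA per cell cannot be told apart. Plant counts were 12870604 to 17116359 per library.

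The make-up of the histone pool differed between the groups. H3.1 made up 13.2 ± 1.02% of histone counts in ethylene libraries and 9.74 ± 0.402% in air libraries, and H3.3 made up 8.53 ± 0.738% in ethylene libraries and 11.3 ± 0.892% in air libraries. H2A.Z made up 4.24 ± 0.0967% in ethylene libraries and 6.07 ± 0.569% in air libraries, and H2A.W 5.98 ± 0.204% in ethylene libraries and 4.51 ± 0.273% in air libraries. In these 4 classes the libraries of the groups did not overlap. H2B made up 33 ± 0.214% in ethylene libraries and 36 ± 0.292% in air libraries, a smaller share in ethylene although its summed CPM was higher there (log2 0.27). The shares of H2A.X and H1 overlapped between the groups. Replication-dependent loci together made up 66.2 ± 0.33% in ethylene libraries and 63 ± 1.16% in air libraries.

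Among the air libraries, replicate 3 had the lowest sums of H4, H3.1, H2A, H2B, H2A.X, H2A.W and H1. Without it the summed log2 fold changes were 0.51 for H4, 0.73 for H3.1, 0.49 for H2A, 0.21 for H2B and 0.70 for H2A.W, and the H3.1 to H3.3 ratio was 1.67-fold higher in ethylene libraries. The median over replication-dependent loci was then 0.52. Variant loci called higher numbered 3 without it, in place of 6, and also 3 without ethylene replicate 1 or ethylene replicate 3. Scaling to the 92 spike-in RNAs in place of the TMM factors moved the median of all loci from 0.02 to 0.47, and H2A.Z as a class from -0.11 to 0.35. AT2G28720 turned to 0.06 under that scaling, and AT4G40040 was no longer called lower. Statements on levels that were lower or equal therefore hold under TMM scaling only. As a plain share of plant counts, H3.3 was 0.0352 ± 0.00204% in ethylene libraries and 0.0314 ± 0.000849% in air libraries. H2A.Z was 0.0175 ± 0.000921% in ethylene libraries and 0.0169 ± 0.000288% in air libraries. The within-library ratios above do not depend on scaling.

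**Figure D4:**
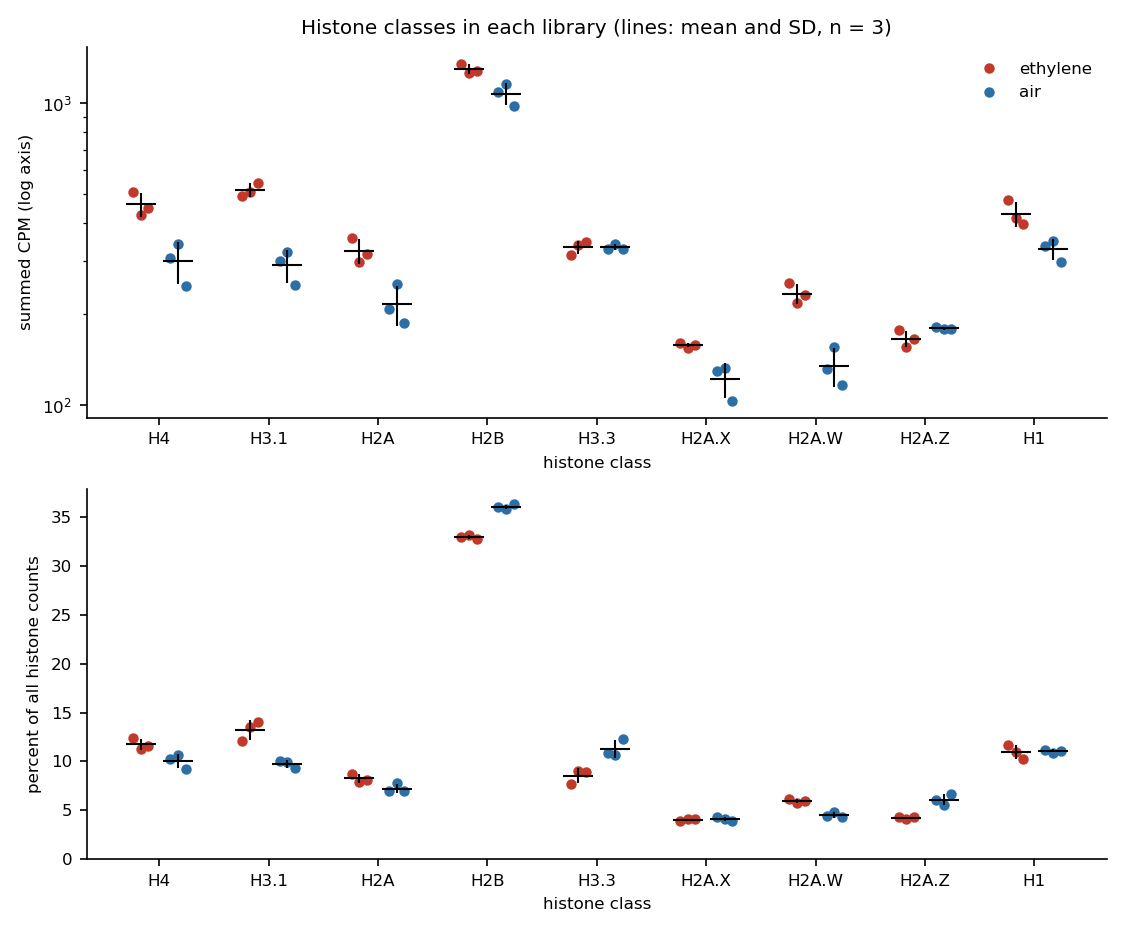
Summed level of each histone class in CPM (upper panel, log axis) and its percent of all histone counts (lower panel) in each library, ethylene left of air; points are libraries and black lines are the mean and SD (n = 3). H3.1 is higher in ethylene libraries in both panels, H3.3 is level in CPM with a smaller share in ethylene libraries, and H2B is higher in CPM with a smaller share.

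Levels were compared between loci as CPM per kilobase of RefSeq mRNA, averaged over the 6 libraries. HTB4 was highest at 288.8, followed by HTB11 at 243.0, HTB2 at 237.5 and the H3.1 locus AT5G65360 at 232.4. The highest variants were AT5G10980 (H3.3) at 194.8 and HTA9 (H2A.Z) at 192.6, close to HTA10 at 189.3, the highest H2A. The highest H4 locus was AT5G59690 at 173.9 and the lowest AT5G59970. A single locus dominated some classes, with HTA9 as the clearest case, while no H4 locus held more than 34.1% of H4 counts. The authors' deposited table lists 43 transcripts of 40 of these loci, of which 26 were higher and 3 lower at an adjusted p under 0.05. For the 37 loci with 1 listed transcript its log2 fold changes were within 0.08 of those above, and 36 had the same sign, HTA12 being the exception.

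Of the 7 further histone loci outside the 42, 2 had enough counts to be tested and 0 were called by edgeR or DESeq2, with 1 at an unadjusted p under 0.05 in edgeR. The centromeric H3, HTR12 (CENH3), had 1.1, 2.23 and 0.887 CPM in ethylene libraries, against 0.966, 1.39 and 0.457 CPM in air libraries (0.58 ± 0.50 on the log2 scale, edgeR adjusted p = 0.417), and HTR11 was at 1.16 ± 0.42 (edgeR adjusted p = 0.0567). MGH3, an H3 gene of the male germ line, had 0 counts in all 6 libraries. For the centromeric form a difference was not detectable at this depth.

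The gene lists beyond the 42 members were chosen with earlier results of these data known, so their counts and adjusted p are a description. Of 18 histone chaperone genes, which escort histones to and from DNA, 2 rose and 1 fell, with a median log2 fold change of 0.12. Over all tested loci 15.8% were called higher and 16.8% lower. NRP1 had 50.2 ± 4.64 CPM in ethylene libraries and 37.7 ± 4.96 CPM in air libraries (log2 0.41 ± 0.12, edgeR adjusted p = 0.0233), and NRP2 had 0.26 ± 0.08 (adjusted p = 0.0395 by edgeR). NAP1;2 fell to 72.7 ± 4.83 CPM in ethylene libraries, against 93.3 ± 5.31 CPM in air libraries (-0.36 ± 0.09, edgeR adjusted p = 0.00982), and turned to 0.09 with spike-in scaling. NAP1;3, the most counted, had 0.09 ± 0.08 (edgeR adjusted p = 0.448). The call of NRP1 was lost without ethylene replicate 1 or 3 or air replicate 3 (0.30 to 0.48), and that of NRP2 with DESeq2 and without any 1 of 5 libraries, all but air replicate 3 (0.19 to 0.29). Of 8 tested genes of the complexes that exchange H2A.Z, 1 fell, AT2G47210 (-1.55 ± 0.48, edgeR adjusted p = 0.0325), on 18 counts over the ethylene libraries and 42 over the air libraries, and this call was lost with DESeq2 and without ethylene replicate 1 or 3 or air replicate 1 or 2 (-1.95 to -1.35). ARP4, the most counted of that list, had 90.8 ± 3.33 CPM in ethylene libraries and 90.6 ± 6.71 CPM in air libraries.

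Genes for keeping chromatin marks through replication rose in 4 of 7 tested cases, beside 15.8% of all tested loci, and fell in 0 by edgeR, beside 16.8%, with 0 lower at an unadjusted p under 0.05 and 0 by DESeq2. CMT3, a methyltransferase of CHG sites, had 92.7, 88.6 and 93.1 CPM in ethylene libraries, against 52.2, 49.4 and 43.3 CPM in air libraries (log2 0.92 ± 0.09, edgeR adjusted p = 8.30e-05). TSK, which binds newly made H3.1, had 0.93 ± 0.17, MET1, the CG maintenance methyltransferase, 0.70 ± 0.17, and DDM1 (CHR1 in RefSeq), a remodeller of heterochromatin, 0.67 ± 0.12, with edgeR adjusted p of 0.00235, 0.0101 and 0.00239. Of 19 tested DNA replication genes 11 rose and 0 fell in edgeR, beside the same shares of all loci, with 0 lower at an unadjusted p under 0.05 and 0 by DESeq2. They had a median of 0.81 and a summed level of 881.7 to 912.5 CPM in ethylene libraries, against 387.2 to 470.0 CPM in air libraries. TSO2, a small subunit of ribonucleotide reductase, had 350.6, 322.2 and 356.1 CPM in ethylene libraries, against 120.4, 136.9 and 82.7 CPM in air libraries. Its log2 fold change was 1.60 ± 0.16 (edgeR adjusted p = 7.49e-05). RNR1, the large subunit, had 0.88 ± 0.07 (edgeR adjusted p = 3.41e-05), PCNA2, a sliding clamp, 0.97 ± 0.10 (edgeR adjusted p = 8.20e-05), and ETG1 0.82 ± 0.10 (edgeR adjusted p = 0.000279). Over the 19 tested replication genes the log2 fold changes ran from -0.34 to 1.60, and their part in the histone values was not tested. Both lists were chosen with earlier results of these data known, so nothing is read from their counts beside the shares of all loci.

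**Figure D5:**
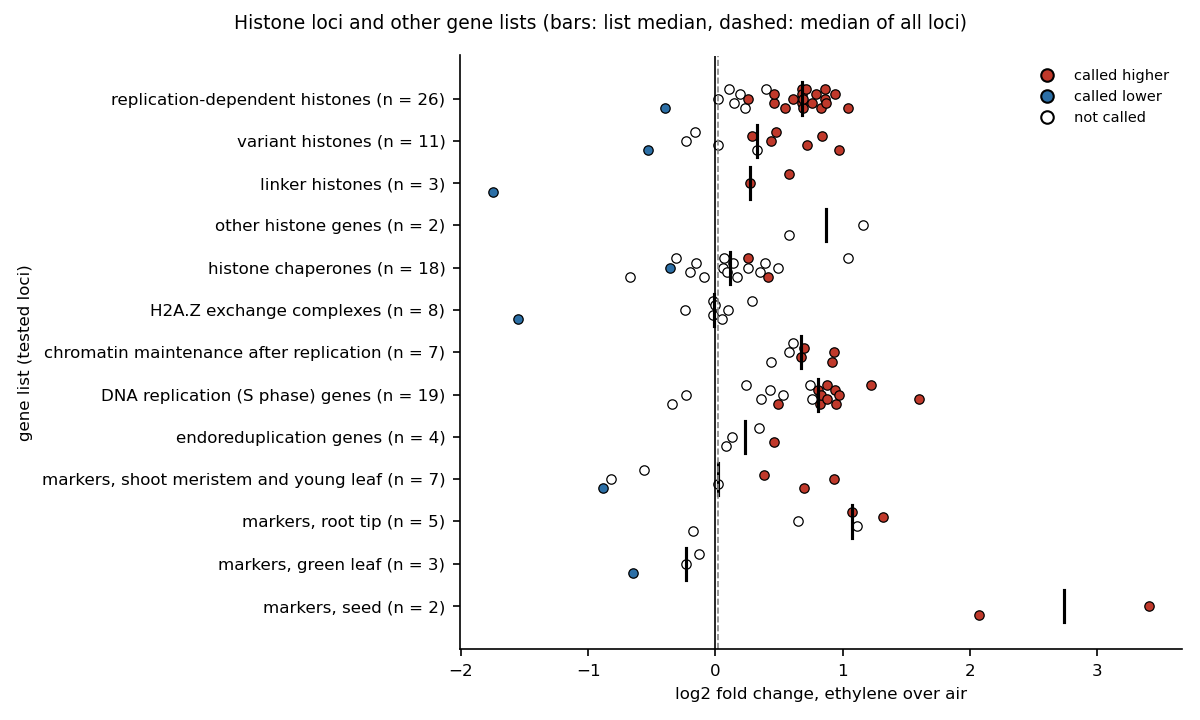
Log2 fold change, ethylene over air (x axis), of each tested locus in the 3 histone groups and in 10 other gene lists (rows); red is called higher, blue called lower and white not called, thick bars are list medians and the dashed line is the median of all loci, 0.02. Replication-dependent histones have a median of 0.68 and DNA replication genes of 0.81, while chaperones and H2A.Z exchange genes centre near 0.

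Among 4 genes of endoreduplication, the cycle that copies DNA without division, LGO rose (0.46 ± 0.11, edgeR adjusted p = 0.00933) and SIM, of about the same level, had 0.13 ± 0.12 (edgeR adjusted p = 0.428). Calls in the endoreduplication and marker lists stand beside 15.8% higher and 16.8% lower over all tested loci. These lists are short and were chosen with earlier results known, so nothing is read from their counts. Markers of growing regions were mixed. Of 7 tested shoot meristem and young leaf markers 3 rose and 1 fell: ANT (0.70 ± 0.13, edgeR adjusted p = 0.00308), GRF1 (0.38 ± 0.11, edgeR adjusted p = 0.0199) and GRF5 (0.93 ± 0.28, edgeR adjusted p = 0.0305) were higher in ethylene, and KNAT1 was lower (-0.88 ± 0.14, edgeR adjusted p = 0.00126). The calls of GRF1 (0.31 to 0.44) and GRF5 (0.67 to 1.30) were lost when 1 library was left out: for GRF1 without ethylene replicate 2 or 3 or air replicate 1 or 2, for GRF5 without any but air replicate 2. In 3 of the 7 tested shoot markers all ethylene libraries lay above all air libraries, and in 3 all lay below. Over all tested loci these shares were 23.9% and 23.8%. The summed level of the list was 120.4 to 138.0 CPM in ethylene libraries and 115.1 to 126.2 CPM in air libraries. Of 5 tested root tip markers, PLT1 (1.07 ± 0.31, edgeR adjusted p = 0.0247) and PLT2 (1.32 ± 0.30, edgeR adjusted p = 0.0077) rose, the call of PLT1 being lost without any 1 ethylene library or air replicate 1 (0.75 to 1.34). In 4 of the 5 all ethylene libraries lay above all air libraries, and in 0 all lay below, against 23.9% and 23.8% of all tested loci. The list median was 1.07. SCR, the most counted, had -0.18 ± 0.10 (edgeR adjusted p = 0.199), with 61.8 ± 2.43 CPM in ethylene libraries and 70 ± 8.63 CPM in air libraries. SCR made up most of the list sums, which were 70.9 to 76.3 CPM in ethylene libraries and 69.1 to 84.2 CPM in air libraries. Of 3 green leaf markers CAB1 fell (-0.65 ± 0.07, edgeR adjusted p = 0.000171), with list sums of 25625 to 27199 CPM in ethylene libraries and 36455 to 39106 CPM in air libraries. Of 7 seed storage genes, SESA5 (3.41 ± 0.52, edgeR adjusted p = 0.000887) and SESA2 (2.07 ± 0.62, edgeR adjusted p = 0.0284) rose. The call of SESA2 was lost with DESeq2 and without any 1 ethylene library (1.49 to 2.63). SESA3, CRA1 and CRU3 were at 0 in all libraries, and the list sums were 21.3 to 33.8 CPM in ethylene libraries and 0.152 to 7.66 CPM in air libraries. The part of organ and cell make-up in the histone values was not tested.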

How the data were processed

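RNA of 3 ethylene and 3 air libraries was analysed. The authors deposited whole-number counts per transcript for each library. Messenger RNA enriched from a Trizol extract was fragmented and sequenced as random-primed cDNA, per the labels. Not given in the sources used here are the aligner, counter, genome build, annotation and use of strand. A second deposited table holds log2 fold changes and adjusted p-values per transcript, per the file headers.

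Counts were summed to 32833 loci. The 92 spike-in RNAs were left out of library sizes. Plant counts were 12870604 to 17116359 per library, so 1 count was worth 0.05842 to 0.0777 CPM before scaling. Changes were tested in R 4.3.3 with the quasi-likelihood F-test of edgeR 4.0.16. It used TMM factors, the filterByExpr filter (minimum count 10, minimum total 15), the group as the one term, and Benjamini-Hochberg adjustment over 17887 loci. Standard errors (SE) came from the log2 fold change and its F statistic. CPM values are TMM-scaled and SD is over 3 libraries. Class sums take every member, tested or not. The fit was tested on simulated data with known changes.

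The members, gene lists and alternatives were chosen with earlier results of these data known. Per class, the locus with the highest mean CPM and those with the highest and lowest fold change are given per library. From each other list, up to 4 called genes with the smallest p and the most counted gene are named, plus CENH3, and HTR11 and MGH3 were named after their values were seen. Names, coordinates and sequences come from RefSeq's annotation of TAIR10.1, which named all 42 members. The files state no build, so these coordinates are RefSeq's own. Alternatives were other scaling factors, spike-in scaling, DESeq2 1.42.0, other filters, a replicate block, each library left out, loci with 1 transcript only and the most abundant transcript per locus.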

Additional observations from a re-analysis of the deposited data

How the results depend on the processing

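Over the 40 tested members, DESeq2's size factors changed no call, upper-quartile factors added 1, DESeq2's own test removed 2, and counting only the most abundant transcript changed none. With loci of 1 transcript only, 29 members were tested and HTA9 (AT1G52740) was also called lower. Without the filter on low counts AT2G37470 lost its call and H2AXA gained one. The directions of the called members held in all alternatives except spike-in scaling. Spike-in scaling raised every class: the summed log2 fold changes became 1.09 for H4, 1.28 for H3.1, 1.05 for H2A, 0.73 for H2B, 0.45 for H3.3, 0.83 for H2A.X, 1.26 for H2A.W, 0.35 for H2A.Z and 0.86 for H1, with 0.93 for replication-dependent loci and 0.67 for variants. Under it the medians were 1.13 and 0.78, the members called higher were 33 and those called lower 1, AT2G28720 was at 0.06, NAP1;2 at 0.09, and 45 genes of the other lists were called in place of 29. With spike-in scaling 7160 loci were called higher and 829 lower.

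Leaving out 1 library at a time gave 24 to 26 called members in place of 30, 17 to 18 replication-dependent loci called higher in place of 19, 3 to 4 variants called higher in place of 6, and 22 to 29 called genes of the other lists. The variant count was 3 without ethylene replicate 1, ethylene replicate 3 or air replicate 3. The medians ranged from 0.52 to 0.71 for replication-dependent loci and from 0.25 to 0.39 for variants. The cause of these shifts was not tested.

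Deviations of same-numbered libraries correlated at 0.02, -0.06 and 0.12, and those of other pairs at -0.13 to 0.12. No shared deviation was thus seen, and the main fit used no pairing. These correlations cannot show how the samples were grown or collected. With the replicate block 28 members were called, 18 replication-dependent and 5 variant loci higher and 3 members lower, with medians of 0.69 and 0.34. It called 28 genes of the other lists, and 2767 loci higher and 2807 lower over all. Low counts limit HTA4, HTA8, HTA12 and the 7 histone loci outside the list.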
